A study of Mus musculus with 16 samples.

Results

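The genes of major histocompatibility complex (MHC) class I presentation followed here in mouse liver RNA are 10 in number: the heavy chain genes H2-Q2, H2-Q1, H2-Q4, H2-Q6, H2-Q7, H2-Q10, H2-K1, H2-D1 and H2-T23, and B2m, which encodes the light chain. They were selected on read counts of these same libraries, with the level of H2-Q2 as the starting point, and they are 10 of the 55357 genes in the count table. All 10 passed the filter on low counts, which kept 14421 genes, though H2-Q2 did not with del7 and del7_WT alone. Because of that choice, differences between the mouse lines are given below as description with no test for these genes, and the genotype comparisons within a line rest on the same libraries and are not independent of the choice.

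The study measured RNA in 16 untreated mouse livers, in 4 groups of 4 libraries. The AUG group carried the genotype that the labels write as mTERC CUG/AUG, and AUG_WT is the wild type set beside it. The del7 group carried mTERC 29_35del, a telomerase RNA gene without 7 nucleotides at positions 29 to 35, and del7_WT is its wild type. The labels give no age, sex, strain, MHC haplotype or litter. Nor do they say that each library is a separate animal, so a p-value reflects library-to-library spread, which may be technical. The meaning of CUG/AUG (codon change or allele pair) is not spelled out, and the telomerase RNA gene is not analysed here, so genotype was not checked against its reads. Gene counts summed to between 7714058 and 14629022 per library. One library stood apart. In AUG_WT replicate 1, the summed level of 10 B and plasma cell markers was 1690 CPM (counts scaled to a library of 1e+06), against 51.1 to 367 CPM in the other 15 libraries. Its 12 T and NK cell markers summed to 140.1 CPM against 4.56 to 21.3 CPM, and its 10 hepatocyte markers to 62180 CPM against 118200 to 189300 CPM. Its 6 dividing cell markers summed to 362 CPM against 6.79 to 24.7 CPM. For the main results that rest on AUG_WT, values without that library are therefore given beside them. In whole liver, a change in the number of cells of a type and a change in RNA per cell cannot be told apart.

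Class I molecules carry peptides from inside the cell to the cell surface, where CD8 T cells and NK cell receptors read them. Each molecule is a heavy chain paired with β2-microglobulin, and peptides are cut by the immunoproteasome, moved by the TAP transporter and fitted to the heavy chain in the endoplasmic reticulum. In the mouse, H2-K1 and H2-D1 encode the classical chains, which are very polymorphic. The Q and T regions hold class Ib genes with narrower roles: H2-Q6 and H2-Q7 encode the membrane-bound antigen Qa-2, H2-Q10 a soluble protein made mainly by the liver, and H2-T23 the antigen Qa-1, which shows leader peptides of other class I chains to CD94/NKG2 receptors. The complex lies on chromosome 17, where all 9 heavy chain genes map, and B2m lies on chromosome 2. The copies resemble each other in sequence, and inbred strains differ in the number and alleles of the Q genes.

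Per kilobase of exon, the genes spanned a wide range of levels over the 16 libraries. B2m averaged 1069 ± 128 CPM per kilobase (SD, n = 16) and lay above every heavy chain gene in all 16 libraries. H2-Q10 at 287 ± 63.0 CPM per kilobase and H2-K1 at 269 ± 55.0 CPM per kilobase were neighbours whose order was not fixed, with H2-Q10 higher in 11 of 16 libraries. H2-D1 followed at 146 ± 39.7 CPM per kilobase, H2-T23 at 57.1 ± 8.39 CPM per kilobase and H2-Q4 at 20.5 ± 9.02 CPM per kilobase, each above the next in all 16 libraries. The 4 lowest were H2-Q1 at 3.99 ± 2.01, H2-Q2 at 3.08 ± 4.31, H2-Q6 at 1.75 ± 0.774 and H2-Q7 at 1.65 ± 0.786 CPM per kilobase, and their order changed between libraries. H2-Q2 was the gene whose SD exceeded its mean. Its highest library lay 117-fold above its lowest, against 1.59-fold for B2m, 1.63-fold for H2-T23 and 6.47-fold for H2-Q7.

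**Figure D1:**
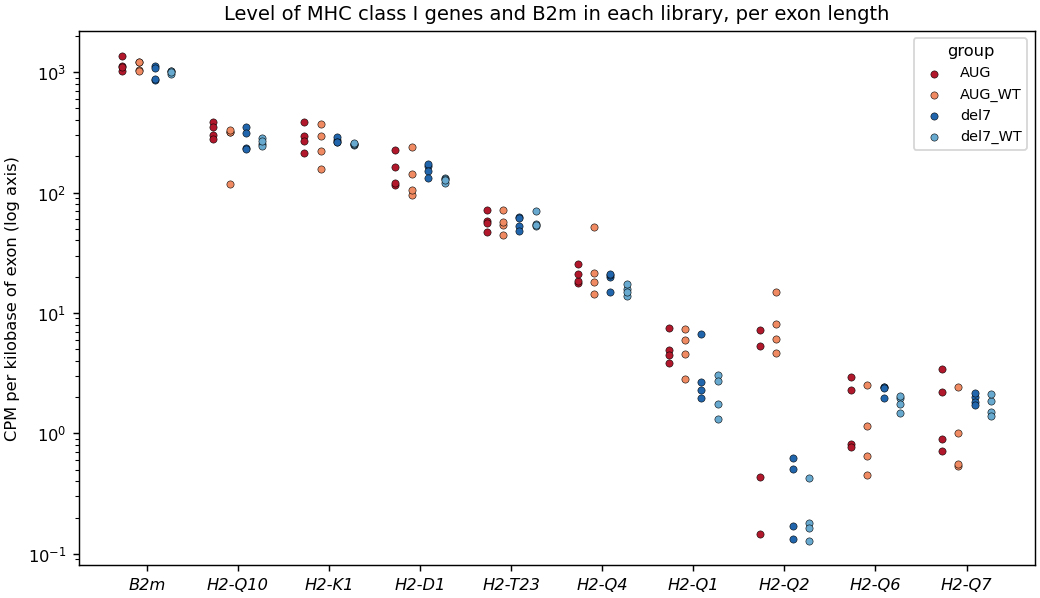
Level of each gene in each library, in CPM per kilobase of exon on a log axis, coloured by group, with 1 point per library and genes ordered by mean level. H2-Q2 splits into libraries above 4.6 and libraries below 0.63 CPM per kilobase, while B2m stays between 864 and 1375 CPM per kilobase.

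H2-Q2, a Q region class I gene, was read at 11.6, 0.316, 0.951 and 15.6 CPM in AUG replicates 1 to 4, and at 32.8, 10.14, 17.5 and 13.3 CPM in AUG_WT replicates 1 to 4. In the other line it was at 1.11, 1.37, 0.288 and 0.373 CPM in del7 livers and at 0.280, 0.929, 0.389 and 0.358 CPM in del7_WT livers. All 4 AUG_WT libraries and AUG replicates 1 and 4, 6 of the 16, thus held 10.14 to 32.8 CPM (107 to 468 reads). The remaining 10, which are AUG replicates 2 and 3 and all 8 libraries of the del7 line, held 0.280 to 1.37 CPM (3 to 17 reads). No library lay between. The AUG group held libraries of both kinds, with an SD of 7.67 CPM around a mean of 7.12 CPM (n = 4), against 18.4 ± 10.06 CPM in AUG_WT (SD, n = 4). The del7 and del7_WT groups averaged 0.785 ± 0.537 and 0.489 ± 0.297 CPM (SD, n = 4 each).

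The fitted log2 difference of H2-Q2 was -1.36 ± 0.76 (SE) for AUG against AUG_WT, with an adjusted p of 0.628 in edgeR's quasi-likelihood test. For del7 against del7_WT it was 0.75 ± 1.08 (SE), on 3 to 17 reads per del7 library and 3 to 10 per del7_WT library. H2-Q2 did not pass the filter on low counts with del7 and del7_WT alone, so that value is given without a test. The difference between those effects was -2.11 ± 1.33 (SE), with an edgeR adjusted p of 0.873, and rests in part on the same low counts. Neither adjusted p passed the threshold of 0.05. Without AUG_WT replicate 1 the first value was -0.89, with an edgeR adjusted p of 0.905. As a description, H2-Q2 was higher in AUG_WT than in del7_WT by 5.22 ± 0.98 (SE) on the log2 scale, with no overlap between the groups. It was higher in AUG than in del7 by 3.11 ± 0.90 (SE), and there the groups overlapped because of AUG replicates 2 and 3.

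**Figure D2:**
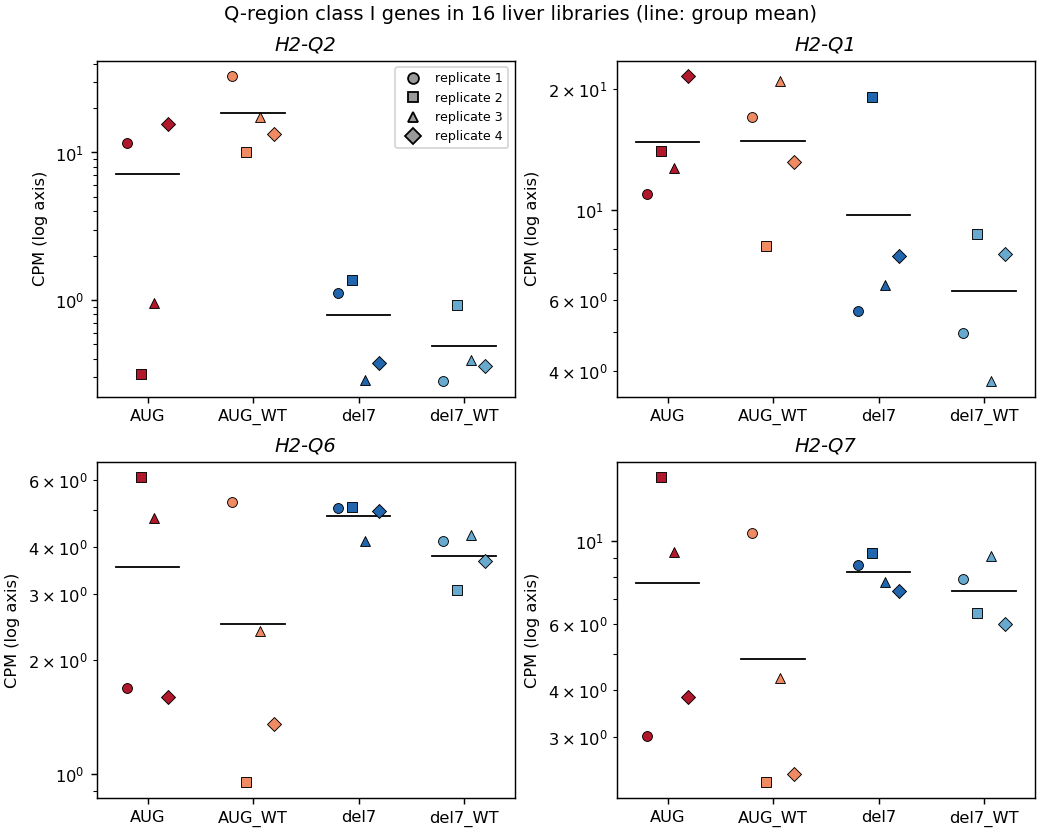
Levels of H2-Q2, H2-Q1, H2-Q6 and H2-Q7 in CPM (log axes) by group, with 1 symbol per library shaped by replicate number and a line at the group mean. H2-Q2 is at 10.14 CPM or more in AUG replicates 1 and 4 and in all AUG_WT libraries, and H2-Q6 and H2-Q7 are low in 5 of those 6, the exception being AUG_WT replicate 1.

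H2-Q6 and H2-Q7, which encode Qa-2, ran the other way in most of the libraries with high H2-Q2. H2-Q7 was at 3.02, 14.7, 9.32 and 3.83 CPM in AUG replicates 1 to 4 and at 10.45, 2.27, 4.32 and 2.40 CPM in AUG_WT replicates 1 to 4. It was at 8.61, 9.28, 7.78 and 7.34 CPM in del7 livers and at 7.92, 6.41, 9.09 and 5.99 CPM in del7_WT livers. The 5 lowest values are AUG replicates 1 and 4 and AUG_WT replicates 2, 3 and 4. H2-Q6 was at 1.69, 6.10, 4.76 and 1.60 CPM in AUG replicates 1 to 4 and at 5.26, 0.948, 2.39 and 1.36 CPM in AUG_WT replicates 1 to 4. The same 5 libraries are its lowest, while its del7 and del7_WT libraries lay between 3.07 and 5.09 CPM. The pair kept a steady ratio to each other, with 0.414 to 0.678 H2-Q6 reads per H2-Q7 read over the 16 libraries.

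Ratios to H2-Q4, a neighbouring Q region class I gene, set the same libraries apart and brought AUG_WT replicate 1 in with the others. There were 0.0511 to 0.0772 H2-Q7 reads per H2-Q4 read in the 6 libraries with H2-Q2 above 10 CPM and 0.135 to 0.252 in the other 10. AUG_WT replicate 1, whose H2-Q4 level of 135 CPM was the highest, had the ratio of 0.0772. For H2-Q6 per H2-Q4 read the ranges were 0.0253 to 0.0424 in the 6 libraries and 0.0680 to 0.119 in the other 10. For H2-Q2 per H2-Q4 read they were 0.243 to 0.311 and 0.00477 to 0.0254. H2-Q2 reads outnumbered H2-Q7 reads by 3.14 to 5.53 to 1 in the 6 libraries and stood at 0.0214 to 0.148 per H2-Q7 read in the other 10. These sets were formed from the measured H2-Q2 level, so the ratios are descriptions and carry no test.

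H2-Q1 followed H2-Q2 loosely. Its values were 10.9, 13.99, 12.8 and 21.5 CPM in AUG livers and 17.1, 8.15, 20.9 and 13.2 CPM in AUG_WT livers. They were 5.61, 19.1, 6.53 and 7.71 CPM in del7 livers and 4.97, 8.73, 3.76 and 7.78 CPM in del7_WT livers. AUG replicates 2 and 3, which had little H2-Q2, kept H2-Q1 at the level of the rest of their group, and del7 replicate 2 reached the AUG range. H2-Q4 was at 46.4, 66.2, 48.2 and 54.4 CPM in AUG livers and at 135, 37.5, 56.3 and 46.9 CPM in AUG_WT livers. It lay between 38.9 and 54.5 CPM in del7 livers and between 36.1 and 45.1 CPM in del7_WT livers, so the groups compared overlapped.

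H2-Q10, the soluble liver class I chain, was at 1301, 1670, 1222 and 1533 CPM in AUG livers and at 515, 1390, 1373 and 1451 CPM in AUG_WT livers. It was at 1027, 1511, 1006 and 1366 CPM in del7 livers and at 1110, 1239, 1063 and 1168 CPM in del7_WT livers. The groups compared overlapped, with AUG_WT replicate 1 below all other libraries. In that library H2-Q10 made up 18.1% of the summed reads of 30 class I genes, against 39.9% to 58.1% in the other 15, and it stands beside that library's hepatocyte marker sum given above. Whether the cell makeup of that sample accounts for its H2-Q10 level was not tested.

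The highest library lay 2.46-fold above the lowest for H2-K1 and 2.48-fold for H2-D1, the classical chains. H2-K1 was at 625, 1125, 863 and 789.7 CPM in AUG livers and at 1100, 457, 866 and 649 CPM in AUG_WT livers. It was at 804, 851, 771 and 778 CPM in del7 livers and at 732, 741, 738 and 755 CPM in del7_WT livers, so every del7 library lay above every del7_WT library, by a small margin. H2-D1 was at 300.1, 580, 425 and 311 CPM in AUG livers and at 616, 248, 369 and 271 CPM in AUG_WT livers. In the other line it was at 428, 443, 390.3 and 342 CPM in del7 livers and at 339, 313, 332 and 331 CPM in del7_WT livers, again without overlap. H2-T23 lay between 135 and 208 CPM in AUG livers, between 128 and 207 CPM in AUG_WT livers, between 139 and 179 CPM in del7 livers and between 151 and 202 CPM in del7_WT livers. B2m, needed by every heavy chain, lay between 873 and 1183 CPM in AUG livers and between 878 and 1050 CPM in AUG_WT livers. It lay between 743 and 970 CPM in del7 livers and between 833 and 888 CPM in del7_WT livers. Both of these genes overlapped between all groups.

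**Figure D3:**
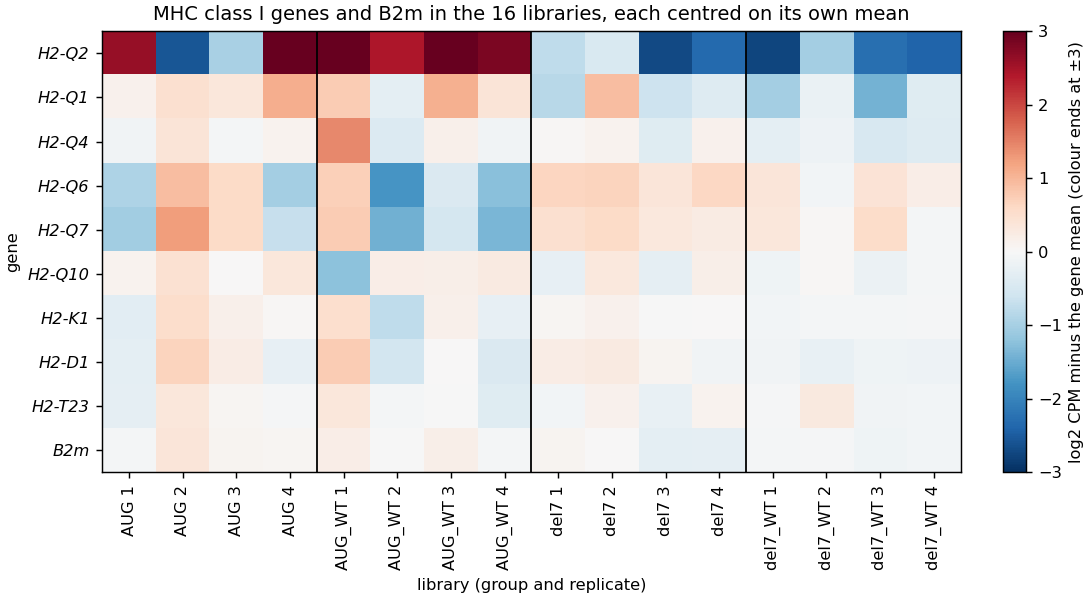
Heat map of log2 CPM minus each gene's mean over the 16 libraries, with genes in rows and libraries in columns by group. The H2-Q2 row changes colour within the AUG group, H2-Q6 and H2-Q7 show the opposite colours in 5 of the 6 libraries with high H2-Q2, and the rows from H2-Q10 down are pale apart from a few libraries such as AUG_WT replicate 1.

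Within the AUG line, 0 of the 10 genes passed edgeR's adjusted p threshold, against 4 of the 14421 genes tested (0.0277%). At an unadjusted p under 0.05 the count was also 0 of 10, against 1270 of all genes tested (8.81%). DESeq2 and limma voom called 0 of the 10, against 9 and 6 of all genes. Of the fitted log2 differences of AUG against AUG_WT 7 were above 0 and 3 below, with a median of 0.07, beside a median of -0.04 over all genes tested. They were 0.65 ± 0.49 for H2-Q7, 0.48 ± 0.48 for H2-Q6, -0.36 ± 0.30 for H2-Q4 and 0.28 ± 0.26 for H2-Q10 (SE), with edgeR adjusted p-values of 0.717, 0.787, 0.733 and 0.77. For H2-Q1, H2-K1, H2-D1, H2-T23 and B2m they lay between -0.00016 and 0.15, with edgeR adjusted p-values from 0.865 to 1. None of the 10 genes had groups without overlap, against 2.05% of all genes tested. Without AUG_WT replicate 1 the edgeR fit gave H2-Q7 1.39 (adjusted p = 0.74), H2-Q6 1.20 (adjusted p = 0.791) and H2-D1 0.47 (adjusted p = 0.821). For all 3, AUG replicates 2 and 3, the libraries with little H2-Q2, lay above AUG replicates 1 and 4. The unadjusted edgeR p-values of the 3 genes were 0.00739, 0.0162 and 0.0367. Over all 14582 genes tested without that library, 376 were higher and 487 lower at an unadjusted p under 0.05. In that fit H2-Q4 turned to 0.22, H2-K1 was at 0.39, H2-T23 at 0.19, B2m at 0.10, H2-Q1 at 0.096 and H2-Q10 at 0.047, with edgeR adjusted p-values from 0.834 to 0.982. AUG replicate 2 was the highest AUG library for H2-Q6, H2-Q7 and H2-D1, as for H2-Q4, H2-Q10, H2-K1, H2-T23 and B2m. Its interferon-stimulated genes summed to 1526 CPM, against 822 to 916 CPM in the other AUG libraries. Its Kupffer cell and macrophage markers summed to 831 CPM, against 362 to 577 CPM. Without AUG replicate 2 and with AUG_WT replicate 1 kept, H2-Q7 was at 0.14, H2-Q6 at 0.087 and H2-D1 at -0.12. What part the cell makeup of AUG replicate 2 had was not tested.

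Within the del7 line, 0 of the members other than H2-Q2 passed the adjusted p threshold in edgeR, against 0 of the 14421 genes tested (0%). H2-Q2 is left out of the test counts here, since it passed the filter only because all groups were fitted together. The count of the other members at an unadjusted p under 0.05 was 0, against 277 of all genes tested (1.92%). DESeq2 and limma voom also called 0 of them, against 1 and 0 of all genes. Of the 10 fitted log2 differences of del7 against del7_WT, H2-Q2 included, 8 were above 0 and 2 below, with a median of 0.23 beside 0.00014 over all genes tested. They were 0.63 ± 0.40 for H2-Q1, 0.35 ± 0.47 for H2-Q6, 0.31 ± 0.30 for H2-Q4, 0.29 ± 0.26 for H2-D1, 0.17 ± 0.49 for H2-Q7, 0.11 ± 0.23 for H2-K1 and 0.10 ± 0.26 for H2-Q10 (SE). H2-T23 was at -0.04 ± 0.16 and B2m at -0.03 ± 0.14 (SE). The H2-Q1 value rested on del7 replicate 2, without which it was 0.058. The groups of 2 of the 10 genes, H2-K1 and H2-D1, did not overlap, against 4.01% of all genes tested. All 10 Kupffer cell and macrophage markers had fitted values above 0 in the same comparison, and their summed level was 409 to 666 CPM in del7 livers against 249.7 to 403 CPM in del7_WT livers. The part of these cells in the H2-K1 and H2-D1 values was not tested.

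For the difference between the AUG and del7 effects, edgeR called 0 of the 10 genes, against 1 of 14421 (0.00693%), with 0 at an unadjusted p under 0.05, against 751 of all genes (5.21%). DESeq2 and limma voom called 0 of the 10, against 6 and 2 of all genes. The place of H2-Q2 in these counts rests in part on its low counts in the del7 line. Apart from H2-Q2, the values farthest from 0 on all 16 libraries were -0.67 ± 0.42 for H2-Q4 and -0.63 ± 0.56 for H2-Q1 (SE), with edgeR adjusted p-values of 0.873 and 0.885. They were -0.08 and -0.52 without AUG_WT replicate 1, and H2-Q7 at 1.22 and H2-Q6 at 0.86 lay farther from 0, with an edgeR adjusted p of 1 for all 4. Between the lines, H2-Q2 was the only gene of the 10 whose AUG_WT and del7_WT groups did not overlap, beside 3.53% of all genes tested, and none of the 10 had AUG and del7 groups without overlap, beside 5.08%. Over all genes tested, edgeR called 0.0347% for AUG_WT against del7_WT and 0.0416% for AUG against del7. Since these genes were chosen on the same libraries, nothing is read from the line counts. H2-Q1 was 1.22 ± 0.40 higher in AUG_WT than in del7_WT on the log2 scale and H2-Q4 0.78 ± 0.30 higher (SE), while H2-Q6 was at -0.59 ± 0.48 and H2-Q7 at -0.58 ± 0.49. Without AUG_WT replicate 1 the last pair moved to -1.31 and -1.324, H2-Q4 to 0.20 and H2-Q1 to 1.12. On all 16 libraries, H2-Q10, H2-K1, H2-D1, H2-T23 and B2m lay between -0.03 and 0.19 in AUG_WT against del7_WT and between 0.01 and 0.23 in AUG against del7. In AUG_WT against del7_WT, H2-K1 and H2-D1 turned to -0.19 and -0.17 without AUG_WT replicate 1.

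**Figure D4:**
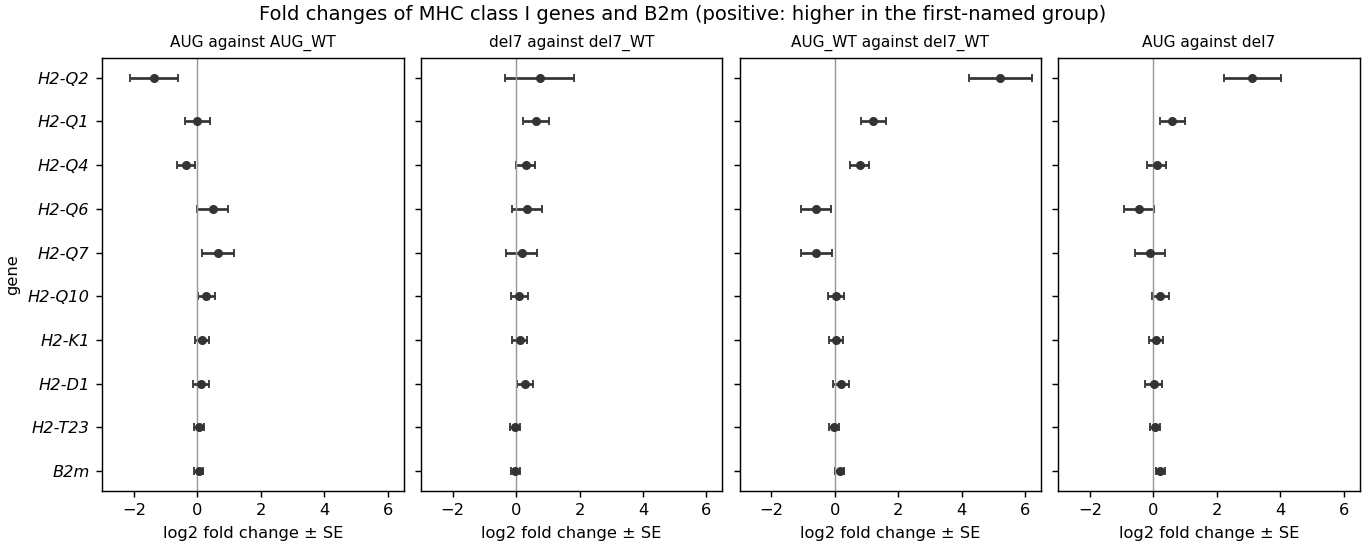
Fitted log2 fold changes with their standard errors for the 10 genes in 4 comparisons, positive where the first-named group is higher, from edgeR on all 16 libraries. The genotype comparisons lie between -1.36 and 0.75 for H2-Q2 and between -0.36 and 0.65 for the rest, and the line comparisons of H2-Q2 lie at 5.22 and 3.11.

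The heavy chain genes share sequence, which bears on all of these counts because STAR counts per gene hold reads that align to 1 place. In reference transcripts (GENCODE M21), 16.1% of the 50-base words of H2-Q2 were also present in another gene, most of them in H2-Q1, which held 12.9%. The share was 36.4% for H2-Q4, whose first partner was the antisense gene Gm11131 at 15.3%, and 35.0% for H2-Q6, with H2-Q7 holding 13.9%. H2-Q4 held 12.3% of the words of H2-Q6. For H2-Q7 the share was 26.5%, and its first partner was H2-Q10 at 14%. Per kilobase H2-Q10 averaged 287 CPM against 1.65 CPM for H2-Q7. The share was 19.1% for H2-Q10, 15% for H2-Q1, 14.5% for H2-T23, 12.8% for H2-D1 and 9.63% for H2-K1. B2m shared no such word with another gene. Words were matched on either strand, so an antisense gene counts as a partner and the H2-Q4 share does not measure copies alone. Over the 16 libraries H2-Q4 had 9694 reverse-strand reads and 6707 reads when strand was ignored. Levels of the heavy chain genes are uncertain where a copy could take or lose reads, and reads from alleles unlike the reference could align to another copy. How far this moved the counts was not tested. Summed over H2-Q6 and H2-Q7, the log2 difference was 0.60 ± 0.48 for AUG against AUG_WT and 0.23 ± 0.48 for del7 against del7_WT (SE), with edgeR adjusted p-values of 0.729 and 1. Summed over 30 class I genes it was 0.16 ± 0.16 and 0.12 ± 0.16 (SE), with edgeR adjusted p-values of 0.787 and 1. For AUG against AUG_WT the values without AUG_WT replicate 1 were 1.33 for the pair and 0.20 for the 30 genes (edgeR adjusted p = 0.754 and 0.904). Strand was kept, and reads on the opposite strand were at most 0.554% of a gene's reads on both strands, the highest share being that of H2-Q4.

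The promoters of classical class I genes are known for elements that not every gene of the family carries: a κB-type enhancer element, an interferon-stimulated response element, and the X and Y boxes bound by the NLRC5, RFX and NF-Y complex. RefSeq promoters (GRCm38.p6) matched 9 of the 10 genes by symbol, all but H2-Q1. The 180 bases before the start are shown for H2-Q2, whose reads split the libraries, for H2-Q7 and H2-Q4, which were set against it, and for the classical gene H2-K1. Capitals mark the letters searched on both strands, GGGGATTCC (κB type), TTTCACTT (interferon response core), TGACG (a core of the X box) and CCAAT (the Y box, ATTGG on the other strand).
H2-Q2 (chr17:35342127-35342306, plus strand): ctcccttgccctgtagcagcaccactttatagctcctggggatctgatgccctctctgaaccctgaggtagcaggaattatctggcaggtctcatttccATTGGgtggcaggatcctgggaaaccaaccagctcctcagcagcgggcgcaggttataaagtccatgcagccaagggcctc
H2-Q7 (chr17:35438975-35439154, plus strand): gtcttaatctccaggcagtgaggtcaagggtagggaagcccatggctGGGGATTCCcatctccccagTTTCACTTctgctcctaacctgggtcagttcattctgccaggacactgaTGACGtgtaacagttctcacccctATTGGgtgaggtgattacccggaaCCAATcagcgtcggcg
H2-Q4 (chr17:35379437-35379616, plus strand): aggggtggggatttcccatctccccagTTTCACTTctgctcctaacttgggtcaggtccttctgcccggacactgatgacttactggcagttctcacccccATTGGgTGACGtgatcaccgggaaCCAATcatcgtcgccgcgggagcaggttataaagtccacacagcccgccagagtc
H2-K1 (chr17:34000348-34000527, minus strand): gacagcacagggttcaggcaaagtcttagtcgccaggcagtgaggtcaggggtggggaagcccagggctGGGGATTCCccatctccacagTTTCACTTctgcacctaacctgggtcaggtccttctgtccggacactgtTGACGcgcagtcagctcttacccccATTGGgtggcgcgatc

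GGGGATTCC was in the promoters of 4 of 9 genes, H2-Q6, H2-Q7, H2-K1 and H2-D1, and in 0.25% of all 32851 promoters of the table. TTTCACTT was in 6 of 9, H2-Q4, H2-Q6, H2-Q7, H2-Q10, H2-K1 and H2-D1, and in 1.6% of all promoters. TGACG was in 5 of 9 against 20.8%, and CCAAT in 8 of 9 against 37.4%, these shares being over the full windows of the table. Of the letters searched, the H2-Q2 window printed here holds 1 match, an ATTGG. In the H2-Q4 window TGACG comes after ATTGG, whereas in the H2-Q7 and H2-K1 windows it comes before. H2-Q4 and H2-Q7 also hold a CCAAT further on. Matching letters alone therefore do not place an X or Y box. These are the reference genome's letters and not those of the mice studied, and a match is no evidence of binding.

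Among the other genes tested, the 5 whose log2 CPM followed H2-Q2 most closely over the 16 libraries were Gm10260 (Pearson's r = 0.967), H2-Ea-ps (0.957), Gm8909 (0.956), Gm6368 (0.922) and Abcc4 (0.896). The libraries fall into separate levels, so r here mostly records which libraries are high, and it is given as a description. Without AUG_WT replicate 1 the same 5 genes were the closest, at 0.915 to 0.969. H2-Ea-ps, the class II alpha chain gene H2-Ea that the annotation lists as a polymorphic pseudogene, had 129, 0, 0 and 84 reads in AUG replicates 1 to 4 and 2086, 99, 76 and 149 reads in AUG_WT replicates 1 to 4. It had 0 reads in all del7 and all del7_WT libraries. A count of 0 allows up to 0.205 to 0.389 CPM in these 10 libraries, from 3 reads of each total, and covers counting error only. As background, mouse strains of some MHC haplotypes, the b haplotype of C57BL/6 among them, do not transcribe H2-Ea. The labels name no haplotype, and whether haplotype accounts for the split was not tested.

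Since class II genes mark B cells and macrophages, the reads of H2-Ea-ps were also set against H2-Aa, another class II alpha chain gene. There were 0.218 to 0.361 H2-Ea-ps reads per H2-Aa read in the 6 libraries with high H2-Q2, AUG_WT replicate 1 included at 0.343, and 0 in the other 10. Gm8909, a protein-coding gene of chromosome 17, had 81, 0, 0 and 151 reads in AUG replicates 1 to 4 and 248, 53, 105 and 107 reads in AUG_WT, with 0 to 2 reads in each del7 and del7_WT library. Gm10260, on chromosome 13, had 103, 0, 1 and 162 reads in AUG and 183, 117, 111 and 201 in AUG_WT, with 0 or 1 in each library of the del7 line. Gm6368, an X-linked processed pseudogene, had 23 to 42 reads in the same 6 libraries and 0 to 2 in the other 10. Abcc4, a transporter gene of chromosome 14, differed less, at 33.1 to 44.6 CPM in the 6 and 15.6 to 28.6 CPM in the other 10. So 2 of the 5 closest genes lie on the chromosome of the MHC and 3 elsewhere. In the interval of chromosome 17 from H2-K2 to Mog, 3 of 103 genes tested had r above 0.8 or below -0.8 (2.91%). Elsewhere it was 12 of 14317 (0.0838%). These counts were chosen after values had been seen, and r is taken against the gene that began the selection. The shares are therefore a description and carry no test.

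**Figure D5:**
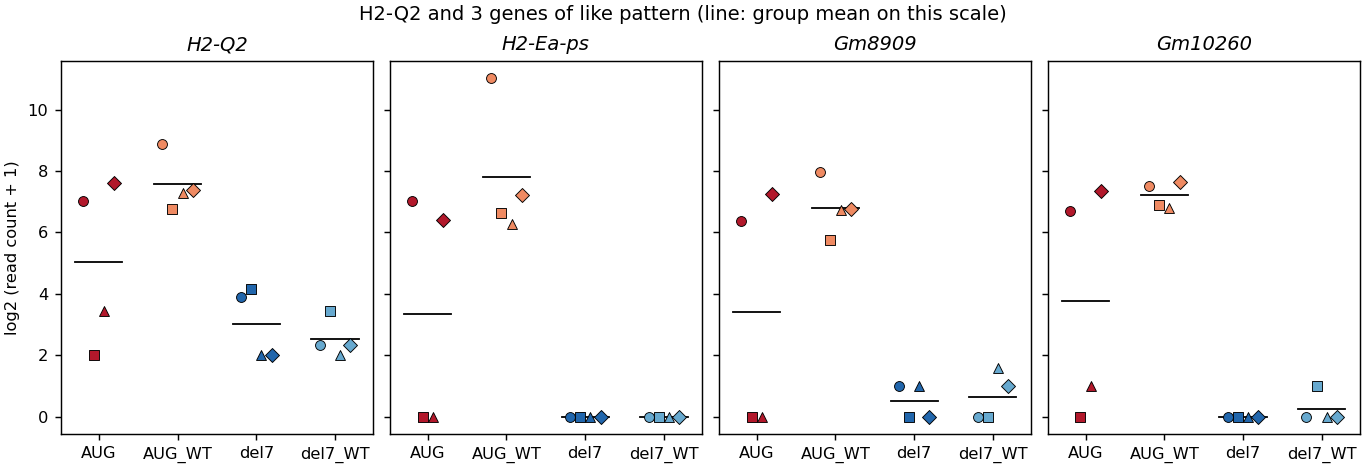
H2-Q2, H2-Ea-ps, Gm8909 and Gm10260 as log2 of the read count plus 1, by group, with 1 symbol per library shaped by replicate number and a line at the group mean. AUG replicates 1 and 4 stand with the AUG_WT libraries in all 4 panels, and AUG replicates 2 and 3 with the del7 line.

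Against the members, r with H2-Q2 was 0.639 for H2-Q1, 0.458 for H2-Q4 and 0.345 for B2m. It was -0.642 for H2-Q6 and -0.615 for H2-Q7, and without AUG_WT replicate 1 -0.855 and -0.840. H2-Q10, H2-K1, H2-D1 and H2-T23 lay between -0.146 and -0.113. Without AUG_WT replicate 1 they were at 0.465, -0.429, -0.516 and -0.381 in that order. H2-Q4 was then at 0.173, H2-Q1 at 0.604 and B2m at 0.24. All points share the libraries and their scaling, and no p is given.

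Other genes of the pathway did not pass the threshold in either genotype comparison or in the difference between them: edgeR, DESeq2 and limma voom each called 0 genes of the 8 lists examined. The shares of all genes tested at an unadjusted p under 0.05, 8.81% for AUG against AUG_WT, 1.92% for del7 against del7_WT and 5.21% for the difference, are the background for the counts that follow. At an unadjusted p under 0.05 in edgeR, AUG against AUG_WT had 1 of 16 genes of peptide loading, 1 of 19 of class I transcription, 1 of 29 interferon-stimulated genes, 1 of 9 class I-like genes, 11 of 76 other genes of the complex and 0 of 6 receptors, beside the counts given below for the remaining lists. Without AUG_WT replicate 1, class I transcription, class II genes and receptors each had 2 higher and 0 lower in that comparison. Other genes of the complex then had 2 higher and 4 lower. Peptide loading, class I-like and interferon-stimulated genes had 0. Over all 14582 genes tested in that fit, 376 were higher and 487 lower. In del7 against del7_WT there was 1 among the other class I genes and 1 among the receptors, with 0 in the other 6 lists. For the difference there were 3 among the other genes of the complex, 2 among class II genes, 2 among receptors and 1 among class I transcription, with 0 in the other 4 lists. Of 8 other class I genes of the complex tested, 1 was higher and 7 lower in AUG than in AUG_WT (median log2 difference -0.56), with 1 at an unadjusted p under 0.05. That gene, H2-T24, was at -0.88 ± 0.33 (SE, edgeR adjusted p = 0.561). Without AUG_WT replicate 1, 4 of these class I genes were higher and 0 lower at an unadjusted p under 0.05 in edgeR. Their median was then 0.48, and H2-T24 was at -0.50. In del7 against del7_WT, 6 were higher and 2 lower (median 0.22), and H2-K2 was at -0.39 ± 0.17 (SE) with an edgeR adjusted p of 1, averaging 12.3 ± 1.92 CPM in del7 livers against 16.1 ± 1.41 CPM in del7_WT livers (SD, n = 4 each).

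Genes of peptide loading and trimming were 5 higher and 11 lower in AUG than in AUG_WT (median -0.13, or 0.10 without AUG_WT replicate 1), and 9 higher and 7 lower in del7 than in del7_WT (median 0.00052). The smallest p-values were those of Psme1, a proteasome activator subunit, at -0.30 ± 0.12, and Lnpep, an aminopeptidase that trims peptides, at -0.41 ± 0.22 in AUG against AUG_WT (SE, edgeR adjusted p = 0.561 and 0.622), or -0.15 and 0.021 without AUG_WT replicate 1. In the del7 line they were those of Sppl2a at 0.11 ± 0.14 and Erap1, which trims peptides in the endoplasmic reticulum, at -0.06 ± 0.10 (SE, edgeR adjusted p = 1 each). Of 19 genes of class I transcription and interferon gamma input, 2 were higher and 17 lower in AUG than in AUG_WT (median -0.20, or 0.14 without AUG_WT replicate 1). In that comparison Irf8, an interferon regulatory factor of B cells and macrophages, was at -2.64 ± 0.90 and Irf2 at -0.29 ± 0.14 (SE, edgeR adjusted p = 0.561 and 0.57). Irf8 turned to 0.31 without AUG_WT replicate 1, and Irf2 was then at -0.16. In del7 against del7_WT, 16 were higher and 3 lower (median 0.08).

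Class II presentation genes were 0 higher and 10 lower in AUG than in AUG_WT (median -1.60), with 5 at an unadjusted p under 0.05, beside 1270 of 14421 genes tested (8.81%), 1063 of them lower. Their summed level was 160 to 583 CPM in AUG livers and 172 to 3215 CPM in AUG_WT livers, the highest being AUG_WT replicate 1, and without that library the median was 0.69. H2-DMb2, which helps load class II, was at -2.85 ± 0.97 and Ciita, the class II master regulator, at -2.76 ± 1.02 (SE, edgeR adjusted p = 0.561 each), and without AUG_WT replicate 1 they turned to 0.11 and 0.65. In del7 against del7_WT, 9 were higher and 0 lower (median 0.30). Interferon-stimulated genes were 3 higher and 26 lower in AUG than in AUG_WT (median -0.38, or 0.12 without AUG_WT replicate 1) and 10 higher and 19 lower in del7 than in del7_WT (median -0.03). Ifit2 was at -0.81 ± 0.36 and Cxcl10 at -1.56 ± 0.76 in AUG against AUG_WT (SE, edgeR adjusted p = 0.561 and 0.586), or -0.25 and 0.50 without AUG_WT replicate 1.

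Receptors that read class I on NK, T and myeloid cells were mostly too low to test, with 6 of 20 kept. All 6 were lower in AUG than in AUG_WT (median -0.40, or 0.46 without AUG_WT replicate 1). In del7 against del7_WT, 5 were higher and 1 lower (median 0.79), and 4 of the 6 had groups without overlap, against 4.01% of all genes tested. The summed Kupffer cell and macrophage markers, at 409 to 666 CPM in del7 livers against 249.7 to 403 CPM in del7_WT livers, moved the same way, and their part in the receptor values was not tested. Pira2, a paired immunoglobulin-like receptor gene, was at 1.58 ± 0.58 and Klra2, a Ly49-family gene, at 0.91 ± 0.43 (SE, edgeR adjusted p = 1 each). Class I-like genes outside the complex were 7 higher and 2 lower in AUG than in AUG_WT (median 0.11, or 0.34 without AUG_WT replicate 1), with Raet1e, a ligand of NKG2D, at 0.97 ± 0.39 (SE, edgeR adjusted p = 0.561) or 0.84 without that library, and 2 higher and 7 lower in del7 than in del7_WT (median -0.12). Of 76 other genes of the H2 complex, 21 were higher and 55 lower in AUG than in AUG_WT (median -0.14, or -0.01 without AUG_WT replicate 1), and 41 were higher and 35 lower in del7 than in del7_WT (median 0.01). Ppp1r10 at -0.71 ± 0.17 and Msh5 at -1.31 ± 0.35 had the smallest p-values there in AUG against AUG_WT, without overlap between the groups (SE, edgeR adjusted p = 0.561 each), and were at -0.74 and -0.88 without AUG_WT replicate 1.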

How the data were processed

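RNA was measured in 16 liver libraries, from rRNA-depleted total RNA with a directional kit per the labels' protocols. The submitters' processing notes name cutadapt 2.10, STAR 2.7.9a and the build GRCm39, with no annotation release. The authors deposited read counts per gene as whole numbers, without normalization. In 16 of 16 libraries the series table was identical to the reverse-strand counts. Lines naming no gene stayed out of library sizes: unmapped reads (2.82% to 3.93%), multimapping reads (9.23% to 15.0%) and reads in no gene (21.8% to 35.0%).

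Counts were tested across all genes with edgeR 4.0.16 in R 4.3.3 (quasi-likelihood test, two-sided). filterByExpr with a minimum count of 10 kept 14421 genes, TMM scaled the libraries, and 1 model of the 4 groups had 12 residual degrees of freedom. Benjamini-Hochberg adjustment ran over all genes tested, with a threshold of 0.05. The SE of a fitted log2 difference was derived from the edgeR test, as its absolute value over the square root of the F statistic. CPM uses TMM-scaled library sizes, and log2 CPM a prior count of 2. The script was tested on simulated data. DESeq2 1.42.0, limma 3.58.1 (voom), other scalings, filters, strand counting, summed copies, a replicate block and leaving out libraries were alternatives.

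To look for a library deposited more than once, the 24 pairs of libraries within a group were compared by a chi-square of their gene counts, over the 14296 to 16531 genes with an expected count of at least 5 in both. No pair of columns was identical (0 of 24). The statistic was 11.3 to 176 per gene, and its median over genes 1.29 to 20.5, where sampling noise alone gives a median of 0.455. All 16 libraries were therefore kept as separate samples.

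The genes and lists were chosen with earlier results of these data known. Names, exon lengths and shared words came from GENCODE M21 on GRCm38, matched by Ensembl identifier (52081 of 55357 genes), and promoters from RefSeq on GRCm38.p6; no GRCm39 coordinates are given. In a list where no gene passed, the rule took the 2 genes with the smallest p, of which the text gives a part, and the genes like H2-Q2 are the 5 highest r. Fits without AUG_WT replicate 1 for lists, for summed copies and for r, and the ratios, were added after seeing the data. Summed endothelial markers were at 295 to 465 CPM, bile duct markers at 20.2 to 130.1 CPM and dividing cell markers at 6.79 to 362 CPM over all libraries. AUG_WT replicate 1 had the lowest endothelial sum and the highest bile duct and dividing cell sums. The other libraries reached at most 75.7 CPM for bile duct and 24.7 CPM for dividing cell markers.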

Additional observations from a re-analysis of the deposited data

Results flagged for a closer look

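In 5 of 40 groups of 4 libraries, 1 library stood far from the other 3 for its gene, by Dixon's criterion (a gap over 0.829 of the group's range); chance flags about 1 in 20 groups. H2-Q10 was at 515.2 CPM in AUG_WT replicate 1, the lowest of its group, and this is the library with high B, T and NK cell marker sums. H2-Q1 was at 19.13 CPM in del7 replicate 2, the highest of its group. H2-Q6 was at 4.131 CPM in del7 replicate 3, the lowest of its group. The remaining flags were both in del7_WT replicate 2, the highest of its group: H2-T23 at 201.6 CPM and H2-Q2 at 0.9291 CPM, which is 10 reads.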

How the results depend on the processing

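No genotype call on the 10 genes, and no call on the difference of effects for H2-Q2, changed under any alternative run. H2-Q2 in del7 against del7_WT carries no test, and only its values are compared. Of 166 values for the genotype comparisons and that difference under other settings 160 kept their sign, and of 336 with 1 library left out 308 did. The 6 under other settings that changed sign were all H2-Q1 in AUG against AUG_WT, where the log2 difference was -0.00016: 0.0053 with unstranded counts, 0.010 with RLE size factors, 0.041 with no filter, 0.0089 with DESeq2, 0.050 with limma voom and 0.0012 with only the groups compared. In the comparisons between lines, which carry no test, 4 of 160 values under other settings changed sign, for H2-Q10, H2-K1 and H2-D1, as did 18 of 320 with 1 library left out.

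With 1 library left out, these log2 differences of AUG against AUG_WT took both signs: H2-Q1 -0.23 to 0.22, H2-Q4 -0.55 to 0.22, H2-K1 -0.025 to 0.39, H2-D1 -0.12 to 0.47, H2-T23 -0.075 to 0.19, B2m -0.052 to 0.10, H2-M2 -2.81 to 1.24, Lnpep -0.53 to 0.021, Irf8 -3.01 to 0.31, H2-DMb2 -3.40 to 0.11, Ciita -3.47 to 0.65, Klra2 -0.73 to 0.25, Cd8a -1.61 to 0.70 and Cxcl10 -1.92 to 0.50. For H2-Q4 and the last 8 the positive value is the one without AUG_WT replicate 1. The highest values of H2-K1, H2-D1 and H2-T23 are also those without that library. The lowest values of H2-D1, H2-T23, B2m and the last 8 apart from Lnpep are those without AUG replicate 2. For del7 against del7_WT the differences that took both signs were H2-Q10 -0.015 to 0.18, H2-T23 -0.091 to 0.066 and B2m -0.097 to 0.030. Over the alternatives that kept it, H2-Q2 lay between -2.42 and -0.89 in AUG against AUG_WT (edgeR, DESeq2 or limma adjusted p from 0.399 to 0.943). It lay at 0.35 to 1.26 in del7 against del7_WT, 4.77 to 5.73 in AUG_WT against del7_WT and 2.11 to 3.51 in AUG against del7.

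Counts of genes called over the whole table moved more. With DESeq2 they were 9 for AUG against AUG_WT, 1 for del7 against del7_WT, 6 for the difference of effects, 70 for AUG_WT against del7_WT and 50 for AUG against del7. The difference of effects gave 2 with limma voom, 2 with the replicate block and 1 to 2 with 1 library left out, the 2 being without AUG_WT replicate 1. AUG_WT against del7_WT gave 3 with unstranded counts, 11 with no filter, 13 with only the groups compared, 1 with the replicate block and 1 to 10 with 1 library left out, highest without AUG_WT replicate 1. AUG against del7 gave 31 with only the groups compared and 5 to 21 with 1 library left out: 21, 16 and 11 without AUG_WT replicates 1, 2 and 3. The cause of these shifts was not tested.

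Replicate numbers were not taken to pair the libraries, because in each comparison at least 1 same-numbered pair had r of 0.1 or less. That r was -0.157 to 0.351 in AUG against AUG_WT, 0.0919 to 0.283 in del7 against del7_WT, -0.0701 to 0.057 in AUG_WT against del7_WT and 0.0598 to 0.284 in AUG against del7. As a hint from the data, 2, 6, 2 and 6 of 8 libraries correlated best with their own number in these comparisons. The limit of 0.1 was a choice. Only replicate 4, at 0.0919, lay under it in del7 against del7_WT, and only replicate 3, at 0.0598, in AUG against del7. With the replicate block, H2-Q2 was at -1.745 in AUG against AUG_WT (edgeR adjusted p = 0.693) and at 0.77 in del7 against del7_WT. The difference of effects was then -2.51 (edgeR adjusted p = 0.835), and the line values were 5.24 for the wild types and 2.73 for the mutants.

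Depth limits H2-Q2 most in the 10 libraries with 3 to 17 reads of it. H2-Q8 and H2-Q9 matched no row, so the summed Qa-2 value holds H2-Q6 and H2-Q7.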
